A study of Mus musculus with 6 samples.

Results

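The genes of the renin-angiotensin system were followed in RNA from embryonic mouse kidney. The members were the genes listed for the hormone system, namely Ren1, Ace, Agt, Agtr1a, Agtr2, Enpep and Mme, taken by symbol from the deposited table, and 6 of the 7 had a row among its 11578 genes. Agt, which encodes the hormone precursor angiotensinogen, was not analysed here. Whole kidneys from 3 mutants (libraries 328, 336 and 342) with an SRM deletion in Sall1, and from 3 Sall1 wild type embryos (libraries 330, 331 and 337), were compared. The labels give embryonic day 17 in most fields and a slightly later stage in the extraction protocol. The SRM is a short stretch of Sall1, a zinc finger transcription factor, that recruits the chromatin remodeller NuRD. The labels do not give zygosity, strain or litter, nor whether the kidneys of a genotype came from separate embryos, so p-values measure only the spread between these libraries.

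The renin-angiotensin system is a chain of peptide cuts that controls blood pressure, salt balance and, before birth, the growth of the kidney. Renin cuts angiotensinogen to angiotensin I, angiotensin-converting enzyme (ACE) trims that to angiotensin II, and angiotensin II acts through the AT1 and AT2 receptors. Membrane peptidases of the tubule brush border and the podocytes then break the peptides down. In the fetal kidney renin is made along the walls of growing arterioles before it becomes restricted to the juxtaglomerular cells, and loss of renin, angiotensinogen, ACE or the AT1 receptors in mice leaves a malformed papilla and thickened renal vessels.

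Sequence windows upstream of the start were at hand for 6 of the 7 members in the RefSeq promoter table (GRCm38.p6). Those of the enzymes that act in order on the peptide are shown, Ren1 for the first cut, Ace for the second and Enpep for the removal of angiotensin II, each as the 250 bases before the RefSeq start on the strand of the gene. Capitals mark the TATA box (TATAAA on either strand) and the CCAAT box (CCAAT on either strand), and no match overlaps another.
Ren1, chr1:133350424-133350673, plus strand: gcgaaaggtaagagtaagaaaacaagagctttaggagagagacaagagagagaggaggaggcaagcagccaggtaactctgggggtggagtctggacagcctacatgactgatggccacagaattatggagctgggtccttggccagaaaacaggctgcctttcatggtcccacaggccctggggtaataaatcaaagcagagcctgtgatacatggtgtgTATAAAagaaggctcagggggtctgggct
Ace, first start, chr11:105967698-105967947, plus strand: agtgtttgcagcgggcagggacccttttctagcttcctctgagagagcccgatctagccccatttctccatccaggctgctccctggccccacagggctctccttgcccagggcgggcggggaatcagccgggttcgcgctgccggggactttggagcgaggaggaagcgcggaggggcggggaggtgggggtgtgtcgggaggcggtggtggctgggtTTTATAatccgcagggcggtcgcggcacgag
Enpep, chr3:129332750-129332999, minus strand: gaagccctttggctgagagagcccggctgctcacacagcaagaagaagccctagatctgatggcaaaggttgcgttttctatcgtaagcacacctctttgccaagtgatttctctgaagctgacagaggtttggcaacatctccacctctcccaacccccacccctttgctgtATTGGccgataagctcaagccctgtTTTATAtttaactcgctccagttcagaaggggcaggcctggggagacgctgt
Positions are those of the leftmost letter, counted from -1 at the base before the start. The GENCODE start of Ren1, 133350510, lies before the RefSeq start, so the later part of its window is within the gene as annotated there. That of Ace, 105967945, falls in the last bases of its window. Ren1 holds TATAAA at position -29. Ace has the TATA letters on the opposite strand at -31 from its first start. Enpep has them on the opposite strand at -52, with a CCAAT box on the opposite strand at -77. Of 32851 windows of this length in the table, 12.4% held the TATA box and 33.8% the CCAAT box. A match of letters is a description of the window and shows no binding.

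No member passed the test between mutant and wild type kidneys. In limma, with Benjamini-Hochberg adjustment over all 11578 genes and a threshold of 0.05, 0 of the 6 passed, against 33 of all genes (0.285%, with 0.199% higher and 0.0864% lower), and the members' adjusted p ran from 0.231 to 0.373. At an unadjusted p under 0.05 there were 3 of 6 members, Ren1 and Enpep higher and Mme lower in mutants, where 19% of all genes had such a p (10.5% higher and 8.51% lower). By p in the authors' deposited table, Enpep (2.96e-04) and Agtr1a (0.0424) were the members under 0.05, and after adjustment of the authors' deposited p-values 0 of 6 members and 0% of all genes passed. The log2 difference was above 0 for 5 of 6 members and for 52.4% of all genes, with a median of 0.46 over the members against 0.02 over all genes. In 2 of 6 members the values of the mutants all lay above those of the wild types, and 19.5% of all genes had groups that did not overlap (11.1% higher and 8.42% lower). The values are signals whose library totals the authors had made almost equal, and differences are on the log2(signal + 1) scale.

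**Figure D1:**
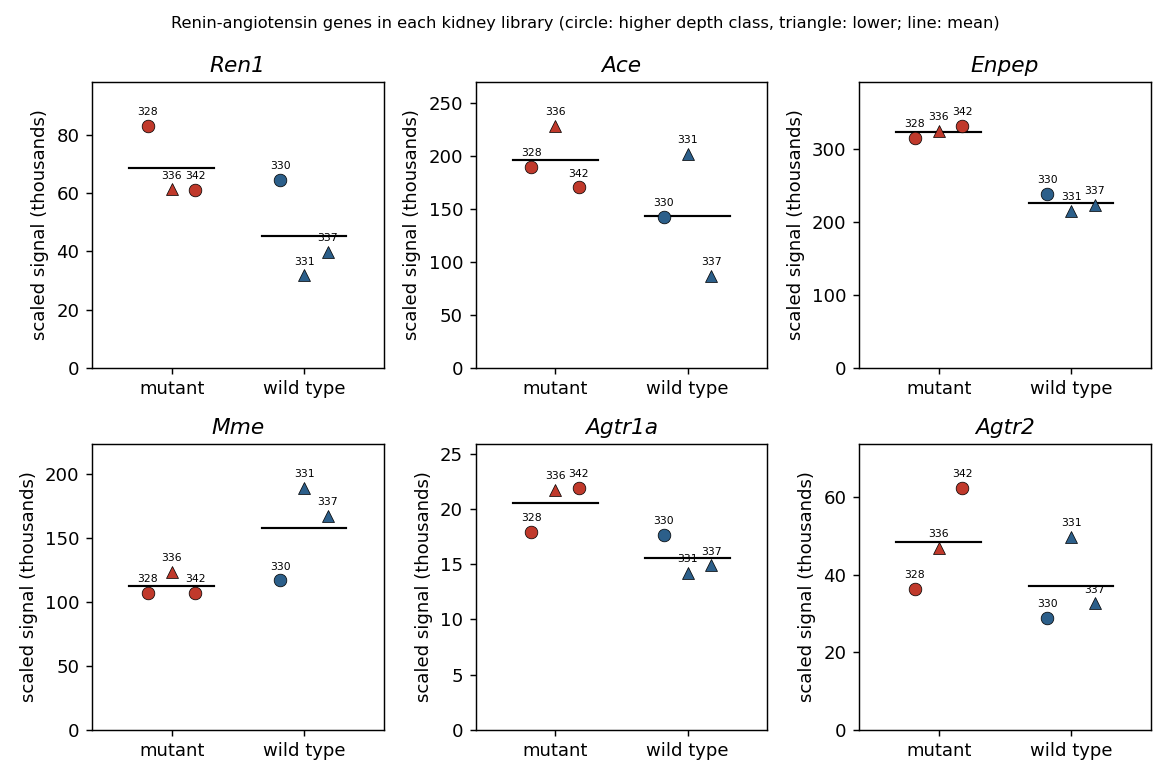
Scaled signal (in units of 1000, linear axis from 0) of the 6 members in each mutant (left) and wild type (right) library, with library numbers, the mean as a line, and circles or triangles for libraries of the higher or lower estimated depth class. Enpep is 316120 to 332373 in mutants and 215237 to 238843 in wild types without overlap, while in Ren1 and Mme wild type 330 lies with or near the mutants.

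The libraries differed in ways that genotype does not describe. From the spacing of the low values, mutant 336 and wild types 331 and 337 were of a lower depth class than mutants 328 and 342 and wild type 330. The first principal component, with 60.0% of the variance, had wild types 331 and 337 at one end, and wild type 330 on the side of the mutants. Each class holds a single library of one genotype, and results of the members are therefore given below within both classes and, where it matters, without wild type 330.

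Renin, the aspartyl protease that starts the chain, is encoded by Ren1 (chromosome 1, 133350510 to 133360325, plus strand, 9 exons in its longest coding transcript, mm10). Ren1 had a signal of 83207, 61338 and 61265 in mutants 328, 336 and 342, against 64738, 31753 and 39913 in wild types 330, 331 and 337. Wild types 331 and 337 lay below every mutant, and wild type 330 lay inside the mutant range. The means were 68603 ± 12647 in mutants and 45468 ± 17180 in wild types (SD, n = 3 each), a log2 difference of 0.64 (SE 0.25, 95% interval 0.09 to 1.19, limma adjusted p = 0.243). Among libraries of higher depth the log2 difference was 0.14, and among those of lower depth 0.78. Without wild type 330 it was 0.93 with a limma adjusted p of 0.00694, in a fit where 26.7% of all genes passed (14.4% of all genes higher and 12.3% lower in mutants). With length and GC content trends taken out it was 0.42 (limma adjusted p = 0.370).

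Some mouse strains carry a second, nearly identical renin gene, Ren2, beside Ren1. The labels name no strain, and the GENCODE annotation used here has 0 genes of that name, so how reads were divided between both rows is not known and both values are uncertain. Ren2 was outside the naming rule and is shown as the copy of Ren1. Ren2 had a signal of 244570, 184617 and 158519 in mutants 328, 336 and 342, against 199839, 186573 and 187357 in wild types 330, 331 and 337. Wild types lay inside the range of the mutants, and the log2 difference was 0.01 (SE 0.18, 95% interval -0.39 to 0.41), and its sign turned to -0.02 with median ratio rescaling or with depth class as a covariate.

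Ren1 over Ren2 was 0.340, 0.332 and 0.386 in mutants 328, 336 and 342, against 0.324, 0.170 and 0.213 in wild types 330, 331 and 337. Every mutant lay above every wild type, with wild type 330 close below mutant 336. The mean log2 ratio differed by 0.63 between the genotypes (exact two-sided permutation p = 0.1, the smallest that 3 against 3 libraries allow). The sum of both rows averaged 264505 ± 56336 in mutants and 236724 ± 24532 in wild types (SD, n = 3 each, exact two-sided permutation p = 0.6). These comparisons of ratio and sum were added after the values were seen.

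**Figure D2:**
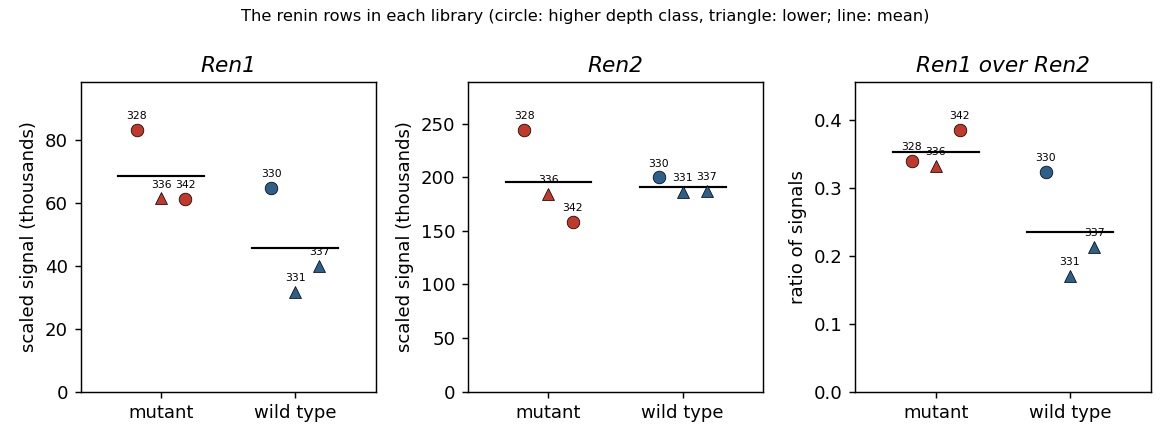
Scaled signal (in units of 1000) of Ren1 and of Ren2 and the ratio of Ren1 to Ren2, each in the mutant (left) and wild type (right) libraries, with means as lines and axes from 0. Ren2 means are 195902 in mutants and 191256 in wild types, and the ratio spans 0.332 to 0.386 in mutants and 0.170 to 0.324 in wild types.

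Renin is made by cells of the mural lineage. Of 11 mural and renin-lineage markers, all in the table, 0 passed in limma. At an unadjusted p under 0.05 stood 1, Myh11, being lower in mutants, where 8.51% of all genes were lower at such a p. Their summed signal was 817222 to 927929 in mutants and 860966 to 907927 in wild types. Of the 11, 7 had a log2 difference above 0 and 4 below, with a median of 0.16, against 0.02 over all genes. The 4 below were Akr1b7 (-0.36), Acta2 (-0.14), Myh11 (-0.60) and Rgs5 (-0.75). In whole kidney RNA, fewer cells of a type and less RNA per cell cannot be told apart.

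ACE, the peptidase that makes angiotensin II and also degrades bradykinin, is encoded by Ace (chromosome 11, 105967945 to 105989964, plus strand, 25 exons). Ace had a signal of 190080, 228716 and 170502 in mutants 328, 336 and 342, against 142469, 201819 and 86764 in wild types 330, 331 and 337. The wild types were spread more widely than the mutants, and wild type 331 lay above 2 of the 3 mutants. The means were 196433 ± 29622 in mutants and 143684 ± 57537 in wild types (SD, n = 3 each), a log2 difference of 0.52 (SE 0.26, 95% interval -0.05 to 1.10, limma adjusted p = 0.286). Without wild type 337 the difference was 0.20, and without wild type 331 it was 0.81. Among libraries of higher depth it was 0.34 and among those of lower depth 0.79. With length and GC content trends taken out it was 0.21 (limma adjusted p = 0.741). Ace has a second start within the gene, used in testis, and an antisense gene, Gm11651, that shares 295 exon bases with it. Whether strand was used in counting is not given in the sources used here.

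The endothelial list, cells known to carry ACE, had a summed signal of 522059 to 545618 in mutants and 515579 to 547733 in wild types. In limma 0 of its 7 genes passed, and 2 had an unadjusted p under 0.05, 1 in each direction. Of all genes 19% had such a p (10.5% higher and 8.51% lower).

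The AT1 receptor, which carries most known actions of angiotensin II, is encoded in rodents by Agtr1a (chromosome 13, 30336441 to 30382867, plus strand, 3 exons) and Agtr1b, and Agtr1b was not analysed here. Agtr1a had a signal of 17920, 21760 and 21943 in mutants 328, 336 and 342, against 17663, 14190 and 14907 in wild types 330, 331 and 337. All mutants lay above all wild types, but mutant 328 and wild type 330 nearly touched. The means were 20541 ± 2272 in mutants and 15587 ± 1834 in wild types (SD, n = 3 each), a log2 difference of 0.40 (SE 0.20, 95% interval -0.04 to 0.84, limma adjusted p = 0.287). It was 0.17 among libraries of higher depth and 0.58 among those of lower depth.

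The AT2 receptor, encoded by the X-linked Agtr2 (21484544 to 21489164, plus strand, 3 exons), is abundant in fetal mesenchyme and declines after birth. Agtr2 had a signal of 36365, 46804 and 62402 in mutants 328, 336 and 342, against 28924, 49698 and 32602 in wild types 330, 331 and 337. The groups overlapped, with wild type 331 above 2 of the 3 mutants. The means were 48524 ± 13103 in mutants and 37075 ± 11086 in wild types (SD, n = 3 each), a log2 difference of 0.39 (SE 0.25, 95% interval -0.15 to 0.94, limma adjusted p = 0.373). Among libraries of higher depth it was 0.72 and among those of lower depth 0.22. Without mutant 342 it was 0.19 and without wild type 331 it was 0.62. With length and GC content trends taken out it was 0.85 (limma adjusted p = 0.141), and with libraries weighted by array weights 0.06.

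The stromal list had a summed signal of 2935762 to 3529334 in mutants and 2745307 to 3140287 in wild types. In limma 0 of its 8 genes passed, and Foxd1, the transcription factor of the cortical stroma from which renin cells descend, had an unadjusted p under 0.05 (27141, 20993 and 28170 in mutants 328, 336 and 342, against 18886, 12840 and 14003 in wild types 330, 331 and 337). Foxd1 was the 1 gene of the list with such a p, where 10.5% of all genes were higher at it. The part of stromal RNA in the Agtr2 and Ren1 values was not tested.

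Enpep was the most abundant member and the one with the widest gap between the genotypes relative to the spread within them. It encodes aminopeptidase A (chromosome 3, 129269175 to 129332720, minus strand, 20 exons), which takes the first residue off angiotensin II and so makes angiotensin III. Enpep had a signal of 316120, 325048 and 332373 in mutants 328, 336 and 342, against 238843, 215237 and 223342 in wild types 330, 331 and 337. Every mutant lay above every wild type, and the gap between the groups exceeded the range within either. The means were 324514 ± 8140 in mutants and 225807 ± 11995 in wild types (SD, n = 3 each), a ratio of means of 1.44 and a log2 difference of 0.52 (SE 0.15, 95% interval 0.20 to 0.85, limma adjusted p = 0.231, unadjusted 0.00415).

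The Enpep difference varied little between settings. It was 0.44 among libraries of higher depth and 0.57 among those of lower depth, and between 0.49 and 0.57 with any 1 library left out. It did not pass in either depth class alone. Without wild type 330 the limma adjusted p was 0.0174, and with length and GC content trends taken out the difference was 0.69 with an adjusted p of 0.0643.

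Mme was the one member with a lower mean in mutants. It encodes neprilysin (chromosome 3, 63241537 to 63386030, plus strand, 23 exons), a zinc peptidase of the brush border and podocytes that cuts angiotensin I to angiotensin 1-7 and also degrades natriuretic peptides and bradykinin. Mme had a signal of 106799, 123621 and 106837 in mutants 328, 336 and 342, against 116801, 189122 and 167151 in wild types 330, 331 and 337. Wild types 331 and 337 lay above all mutants, and wild type 330 lay below mutant 336. The means were 112419 ± 9701 in mutants and 157691 ± 37077 in wild types (SD, n = 3 each), a log2 difference of -0.46 (SE 0.20, 95% interval -0.89 to -0.04, limma adjusted p = 0.253).

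The direction of Mme did not hold in each setting. Without wild type 330 the difference was -0.66 (limma adjusted p = 0.0114), but with length and GC content trends taken out it was 0.07 (adjusted p = 0.832). Among the members Mme had the longest transcript used here, 8039 bases, and the lowest GC content, 38.0%. The Mme difference was -0.13 among libraries of higher depth and -0.52 among those of lower depth.

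**Figure D3:**
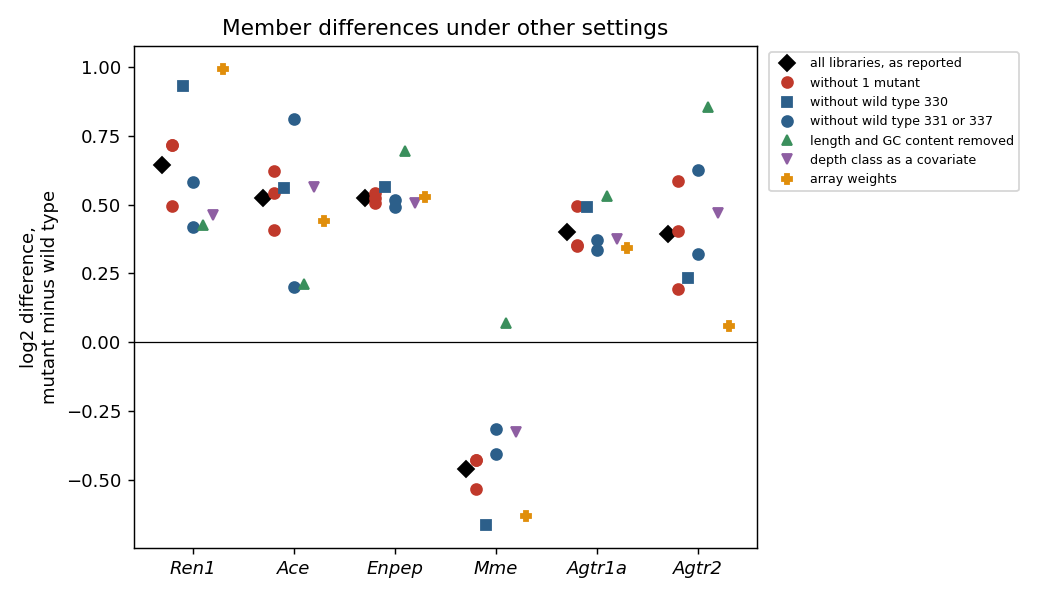
Log2 difference, mutant minus wild type, of each member with all libraries (diamonds) and with a mutant or wild type library left out, length and GC content trends removed, depth class as a covariate, or libraries weighted. Enpep stays between 0.49 and 0.69 in the fits drawn, Ace spans 0.20 to 0.81, and Mme crosses 0 with length and GC content removed (0.07).

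All 6 members had a log2 difference of one sign in both depth classes, 5 higher and 1 lower in mutants, as did 65.1% of all genes (33.1% higher and 32% lower).

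The brush border of the proximal tubule carries aminopeptidase A, neprilysin and ACE. Of 12 proximal tubule markers, all in the table, 0 passed in limma. At an unadjusted p under 0.05 stood 5, each higher in mutants, where 10.5% of all genes were higher at such a p. Of the 12, 10 had a log2 difference above 0 and 2 below it, Lrp2 (-0.12) and Cubn (-0.19), with a median of 0.42. The summed signal was 1162288 to 1809059 in mutants and 1066220 to 1330446 in wild types. Pck1, the gluconeogenic enzyme phosphoenolpyruvate carboxykinase, had 106120, 61018 and 66059 in mutants 328, 336 and 342, against 43288, 19409 and 29057 in wild types 330, 331 and 337, with each mutant above each wild type (limma adjusted p = 0.114, chosen after its values were seen). Of 7 podocyte markers 0 passed and 1, Synpo, had such a p, being higher, with a summed signal of 807306 to 983101 in mutants and 762554 to 868193 in wild types. No marker of these cell types, the stroma, the endothelium or the mural cells was at 0 in a library. The part of these cell types in the values of Enpep, Mme and Ace was not tested.

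Without wild type 330, 3 of the 6 members passed in limma, Ren1 and Enpep higher and Mme lower, but so did 26.7% of all genes (14.4% higher and 12.3% lower). Under limma's array weights, which were 0.298 in wild type 330 and 5.33 in mutant 328, Ren1, Enpep and Mme passed too, beside 30.2% of all genes (16.5% higher and 13.6% lower). In the other alternatives 0 of the 6 members passed. All genes passed there in shares of 0.0173% without mutant 328, 0.104% without mutant 336, 0.0432% without mutant 342, 0.0259% without wild type 331 and 0.147% without wild type 337. The shares were 0.605% in the higher and 6.08% in the lower depth class alone, 0.371% with depth class as a covariate and 0.434% with length and GC content trends taken out. They were 0.363% with quantile normalization, 0.294% with median ratio rescaling, 0.19% with no variance trend and 0.423% at an adjusted p under 0.1. With other pseudocounts (100 and 1000) they were 0.285% and 0.328%, and with a mean signal of at least 10000 the share was 0.258%.

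Groups that did not overlap became common among all genes in the smaller sets of libraries. In the higher depth class 5 of 6 members did not overlap, as did 61.6% of all genes, and in the lower class 5 of 6, as did 78.3%. Without wild type 330 it was 4 of 6 members and 55.6% of all genes, and without wild type 331 4 of 6 and 24.1%. Without mutant 336 it was 3 of 6 and 35.3%. It was 2 of 6 without mutant 328 (23.2% of all genes), mutant 342 (34.1%) or wild type 337 (24.1%).

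**Figure D4:**
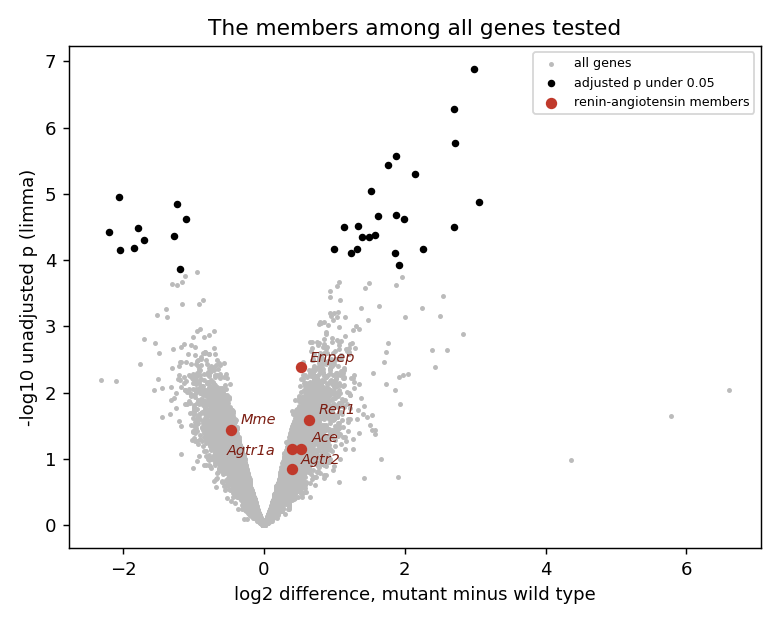
Unadjusted limma p (as -log10) against log2 difference, mutant minus wild type, for all 11578 genes (grey), the 33 past the threshold (black) and the 6 members (red). The members are not among the 33, and have differences from -0.46 for Mme to 0.64 for Ren1. Enpep has the lowest unadjusted limma p of the members, 0.00415.

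Levels were compared between genes only as mean signal per kilobase of the longest coding transcript in GENCODE. Enpep had 77616 per kilobase in mutants and 54008 in wild types, above every other member in every library. Ren1 followed with 43093 in mutants and 28560 in wild types, and Ace with 40039 in mutants and 29287 in wild types, and the ranges of these 2 genes over the libraries overlapped in both genotypes. Agtr2 had 14780 in mutants and 11293 in wild types, Mme 13984 in mutants and 19616 in wild types, again overlapping in both genotypes. In wild types Mme also overlapped Ren1 and Ace. Agtr1a was lowest, with 9341 in mutants and 7088 in wild types, below each other member in every library.

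Across the 6 libraries, Ren1 and Mme ran opposite to each other (Pearson r = -0.959 of log2 signal), and Enpep ran with Agtr1a (0.907), while r was -0.153 between Agtr2 and Ren1 and -0.0405 between Agtr2 and Mme. These points share libraries, genotype and depth class, and the values are descriptions. Likeness to each member was ranked with predicted gene models (Gm, Rik and LOC names) left out. The genes most like Ren1 over the 6 libraries were Fastk (r = 0.998), Wdr90 (0.998) and Tmem201 (0.998). Those most like Mme were Ppp2r3a (0.998), Atad2 (0.997) and Arid4b (0.997), and those most like Ace were Hspa12a (0.995), Tgfbr3 (0.994) and Adam22 (0.994). Enpep was most like Tesc (0.994), Wipf3 (0.986) and Krt19 (0.986), Agtr1a most like Mrm1, Ppp1r18 and Emp3 (0.986 each), and Agtr2 most like Gnptg (0.966), Nnat (0.955) and Apex2 (0.950).

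Of 23 further genes of angiotensin processing and reception, 15 had a row and 0 passed in limma and the median log2 difference was 0.05. At an unadjusted p under 0.05 stood 2 of them, both being higher in mutants. Of all genes 19% had such a p, 10.5% being higher. Anpep, aminopeptidase N, which turns angiotensin III into angiotensin IV, had the highest signal of them before division by length. Ctsd, the lysosomal protease cathepsin D, led per kilobase among those with a transcript length. Ren2 had no length and was not ranked per kilobase. Anpep had 349544, 255320 and 347326 in mutants 328, 336 and 342, against 266019, 218299 and 212562 in wild types 330, 331 and 337, overlapping through mutant 336 and wild type 330 (log2 difference 0.44, SE 0.18, limma adjusted p = 0.249). Dpp3, a cytosolic peptidase that degrades angiotensin II, had 73234, 55876 and 65922 in mutants 328, 336 and 342, against 64417, 31501 and 33871 in wild types 330, 331 and 337, so wild type 330 again lay with the mutants (0.66, SE 0.26, limma adjusted p = 0.243). With length and GC content trends taken out the difference was 0.23 for Anpep and 0.28 for Dpp3. Among libraries of higher depth it was 0.39 for Anpep and 0.11 for Dpp3, and among those of lower depth 0.25 for Anpep and 0.77 for Dpp3. In limma 5 of the 15 passed without wild type 330, 4 higher and 1 lower, where 26.7% of all genes did. Anpep (adjusted p = 0.0398), Dpp3 (0.00412) and Atp6ap2 (0.0370) were among these.

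Atp6ap2 was also named outside the rule and is X-linked. Atp6ap2, the prorenin receptor and a part of the vacuolar proton pump, had 52453, 53191 and 56799 in mutants 328, 336 and 342, against 56536, 73400 and 77811 in wild types 330, 331 and 337 (-0.34, SE 0.18, limma adjusted p = 0.295). The mutants and wild types overlapped through mutant 342 and wild type 330, and the sign turned with length and GC content trends taken out (0.07). The difference was -0.05 among libraries of higher depth and -0.51 among those of lower depth.

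Of 17 genes listed as signals to renin cells, 12 had a row and 0 passed in limma and the median log2 difference was -0.10. At an unadjusted p under 0.05 stood 4 of them, with 1 being higher in mutants and 3 being lower, where 19% of all genes had such a p. In these 4 the groups did not overlap, nor in 1 more, Adcy6, so 5 of 12 were without overlap, against 19.5% of all genes. Ptger4, the prostaglandin E2 receptor EP4, which stimulates renin release, had 6887, 10158 and 7510 in mutants 328, 336 and 342, against 4813, 3723 and 3712 in wild types 330, 331 and 337, so each mutant lay above each wild type (log2 difference 0.99, SE 0.30, limma adjusted p = 0.231). Its wild type mean of 4083 was near 3146, the lowest mean signal of a gene in the table. Ptger4 was not in the fit with a mean signal of at least 10000. Rbpj, the transcription factor of Notch signalling that renin cells need to make renin, had 24100, 30805 and 29676 in mutants 328, 336 and 342, against 34013, 46093 and 58720 in wild types 330, 331 and 337, each mutant below each wild type (-0.69, SE 0.22, limma adjusted p = 0.231). Gja1, the gap junction protein connexin 43, differed by -0.54 (SE 0.19) and Slc12a2, the sodium-potassium-chloride cotransporter NKCC1, by -0.57 (SE 0.19). Gnas, the stimulatory G protein subunit and the one of the list with the highest signal, differed by -0.08 (SE 0.20), with the sign turning without mutant 336 or wild type 337.

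The calls among these signals also depended on wild type 330. Without it 5 of the 12 passed in limma, 1 higher and 4 lower, where 26.7% of all genes did. They included Ptger4 (adjusted p = 0.0241), Rbpj (0.00771), Gja1 (0.0451) and Slc12a2 (0.00903). Among libraries of higher depth the log2 difference was 0.58 for Ptger4, -0.35 for Rbpj, -0.64 for Gja1 and -0.32 for Slc12a2. Among those of lower depth it was 1.45 for Ptger4, -0.76 for Rbpj, -0.25 for Gja1 and -0.58 for Slc12a2. With length and GC content trends taken out it was -0.43 for Rbpj and -0.34 for Slc12a2.

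**Figure D5:**
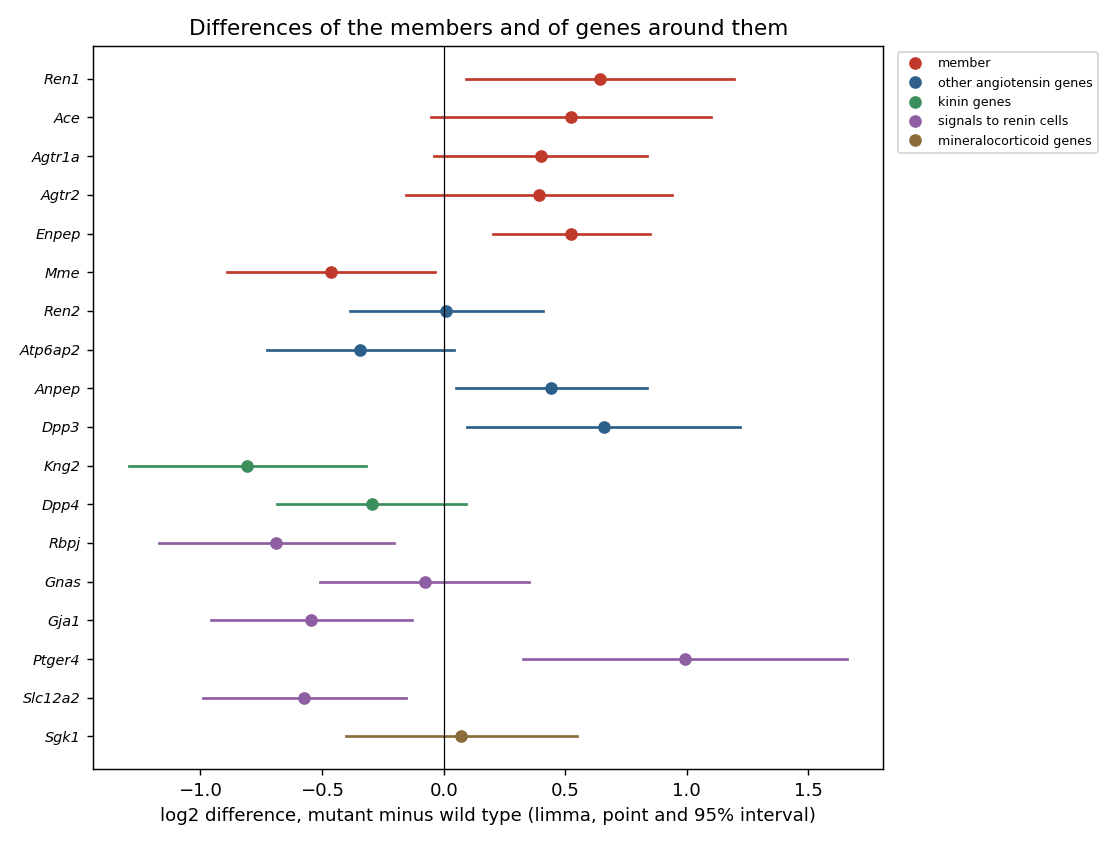
Log2 difference, mutant minus wild type, with its 95% interval from limma for the 6 members and for the genes named from the lists of other angiotensin genes, kinin genes, signals to renin cells and mineralocorticoid genes. The interval excludes 0 for Ren1, Enpep and Mme among the members, before any adjustment for the number of genes tested.

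ACE and neprilysin also act on kinins. Of 8 kallikrein-kinin genes 4 had a row, 0 passed in limma and 1 had an unadjusted p under 0.05, being lower in mutants. Of all genes 8.51% were lower at such a p. Kng2, a kininogen and so a kinin precursor, had 16554, 10283 and 14411 in mutants 328, 336 and 342, against 25549, 22544 and 22782 in wild types 330, 331 and 337. Each mutant lay below each wild type, and the means were 13749 ± 3187 in mutants and 23625 ± 1670 in wild types (SD, n = 3 each, log2 difference -0.81, SE 0.22, limma adjusted p = 0.231). Among libraries of higher depth the Kng2 difference was -0.73 and among those of lower depth -1.14. Mouse kininogen genes are close paralogs, so the Kng2 values are uncertain where reads were shared. Kng2 passed without wild type 330 (limma adjusted p = 0.0353) and in the lower depth class alone (0.0493), in fits where 26.7% and 6.08% of all genes passed. Dpp4, a brush border peptidase and the gene of the list with the highest signal, differed by -0.30 (SE 0.18), or by 0.04 with length and GC content trends taken out.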

How the data were processed

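Poly(A)-selected RNA of 6 kidney samples went into Ion Total RNA-seq libraries, per the labels' protocols. The deposited signal is 1 whole number per gene and library, scaled by the authors to totals of 555147910 to 559251769. The submitters' processing notes name mm10 and bedtools. Of the aligner, annotation, scaling, filter, strand use and unit counted, nothing is stated by labels or headers, and depth is known only as a class and no counting interval is given. The lowest mean signal in the table was 3146. Each row also has the authors' deposited ratio of the genotypes, its log2 and a p-value.

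The fit on log2(signal + 1), mutant minus wild type, used limma 3.58.1 (R 4.3.3) with a variance trend and Benjamini-Hochberg adjustment over 11578 genes, and the script was tested on simulated data. A filter of 1 or more in 3 libraries took out no gene. The depth class rests on whether a spacing above 1 leaves under 5% of values below 60000 unmatched. Length and GC content came from GENCODE M21 for 11518 genes and were removed with splines per library. Named were all members, list genes with an unadjusted p under 0.05 and the gene of highest signal in each list. The members and lists were chosen with earlier results of these data known. A gene of the list of other angiotensin genes is counted in it but not reported here.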

Additional observations from a re-analysis of the deposited data

How the results depend on the processing

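No paired analysis was possible because the labels give no litter or other link between mutant and wild type libraries. The fits within a depth class were chosen after the data were seen, and each leaves 1 library of one genotype, assumed to vary like the others. No filter, no variance trend and an adjusted p under 0.1 leave each log2 difference as it was and could not turn a sign. Over 20 alternative settings, these included, Ren1, Ace, Enpep and the receptors kept their sign. Mme turned to 0.0699 after removal of length and GC content trends, and 0 members passed in limma except as follows. With array weights 3 passed, 2 higher and 1 lower, Ren1 at 0.99, Enpep at 0.53 and Mme at -0.63. Leaving out 1 library, members called ran from 0 to 3 (higher 0 to 2, lower 0 to 1), with Ren1 at 0.42 to 0.93, Enpep at 0.49 to 0.57 and Mme at -0.66 to -0.32. Those calls came without wild type 330. Members with groups that do not overlap ran from 2 to 4 with 1 library left out, and were 5 in the higher and 5 in the lower depth class alone, where 61.6% and 78.3% of all genes did not overlap.

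Of all genes, 33 changed, 23 higher and 10 lower. Leaving out 1 library gave 2 to 3095 changed, 2 to 1670 higher and 0 to 1425 lower. The extremes were without mutant 328 and without wild type 330, and the lower genes were also 0 without wild type 331. Mutant 336 left out gave 12, mutant 342 gave 5 and wild types 331 and 337 gave 3 and 17. Array weights gave 3493 changed, 1915 higher and 1578 lower. The higher depth class gave 70 changed and 56 higher, and the lower 704 changed, 306 higher and 398 lower. Removal of length and GC content gave 50 changed and 19 lower, quantile normalization 16 lower, no variance trend 15 higher, an adjusted p under 0.1 16 lower, and the authors' p-values 0 changed, 0 higher and 0 lower. The cause was not tested. Under array weights 4 of 15 other angiotensin genes, 2 of 4 kinin genes, 5 of 12 signals to renin cells and 2 of 6 mineralocorticoid genes passed, where 30.2% of all genes did, and without wild type 330 these counts were 5, 1, 5 and 2. In the lower depth class 1 kinin and 1 mineralocorticoid gene passed.

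Direction turned for Ren2 at -0.0168 with median ratio rescaling, -0.0198 with depth class as a covariate, -0.0214 in the higher and -0.0182 in the lower depth class, and with 1 library left out it ran from -0.16 to 0.15. Atp6ap2 was at 0.0688 and Dpp4 at 0.0364 with length and GC content removed, and Dpp4 at 0.0063 in the higher class. Sgk1 was at -0.15 with array weights, and ran from -0.15 to 0.21 with 1 library left out, as Gnas did from -0.25 to 0.0489.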

Other observations

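Downstream of angiotensin II, aldosterone acts through the mineralocorticoid receptor on the distal nephron. Of 7 listed genes of that response 6 had a row, 0 passed in limma and 0 had an unadjusted p under 0.05. Of all genes 19% had such a p. Sgk1, the kinase that aldosterone induces and the one with the highest signal before division by length, had 58261, 96729 and 62803 in mutants 328, 336 and 342, against 58750, 64636 and 80024 in wild types 330, 331 and 337, so the wild types lay inside the mutant range. Hsd11b2, which shields the receptor from glucocorticoids, had 50901, 59144 and 45097 in mutants 328, 336 and 342, against 59500, 23526 and 26084 in wild types 330, 331 and 337 (log2 difference 0.63, SE 0.30, limma adjusted p = 0.271), and was chosen after its values were seen. Wild type 330 lay above all mutants there, and wild types 331 and 337 below them. In limma 2 of the 6 passed without wild type 330, both higher, where 26.7% of all genes did.

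The adrenal gland, which lies against the kidney and carries both angiotensin receptors, had 0 of 8 listed markers in the table, whose lowest mean signal was 3146. The Y-linked genes Ddx3y, Uty, Kdm5d and Eif2s3y had signal in every library, with summed values of 74683 to 92498 in mutants and 78633 to 132407 in wild types, and Uty had an unadjusted p under 0.05, being lower in mutants (10027, 14684 and 11527 in mutants 328, 336 and 342, against 12030, 25689 and 27004 in wild types 330, 331 and 337). At an unadjusted p under 0.05, 8.51% of all genes were lower in mutants. Of 5 sex-linked genes listed 4 had a row, and Xist had none. The labels do not give the sex of the embryos, and its part in the values of the X-linked Agtr2 and Atp6ap2 was not tested.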
